A study of Rattus norvegicus with 8 samples.

Results

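The genes described here encode splicing factors and proteins of the small nuclear ribonucleoprotein particles (snRNPs), compared between rat retinal ganglion cells of large and of small size. They were chosen by name: a gene was a member where the platform's probe table gives a probe a single symbol that begins with Srsf, Sf3a, Sf3b, Snrp, Prpf, U2af or Rbm followed by a number where the family uses one. The rule found 67 genes with 133 probes among the 14802 genes measured, and all 67 had a value on at least 6 arrays. They fall into 10 Srsf genes, 9 Sf3a and Sf3b genes, 8 Snrp genes, 11 Prpf genes, 28 Rbm genes and U2af1l4, the only member of the U2af family with such a probe. One further probe, shared between Rbm4b and Rbm4, was left out.

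Ganglion cells, whose axons form the optic nerve, were labelled by the retrograde tracer 4DI-10ASP, dissociated in the presence of the transcription inhibitor actinomycin D, and separated by size in a flow cytometer. Both groups are thus tracer-labelled rat cells that differ by the size gate, and the sources used here give no strain, age or sex. RNA of each fraction was amplified in 2 rounds, coupled to Cy5 (large cells, per the labels) or Cy3 (small cells) and hybridised together on 8 two-colour Agilent arrays, which carry their title numbers here (39, 40, 41, 42, 43, 69, 70 and 71). Each value is a log2 ratio of both channels, so it shows a difference between the fractions and no level in either, and the presence of ganglion cell markers could not be checked as a level.

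No label says which channel is the numerator, although the study describes a dye swap, so each value is given by its sign alone. Were large cells the numerator, as the order of the channels in the labels would have it, a positive value would mean more transcript in large cells. The arrays fall into sets of 4 that correlate with one another, 39, 41, 43 and 70 (set 1) and 40, 42, 69 and 71 (set 2). Over all probes 15 of 16 pairs between the sets correlated below 0, the lowest at a Pearson correlation of -0.29. The sets come from these correlations, not from the labels, so their means are given beside the mean of the 8 arrays as a description and without a test. Values of set 1 are listed in the order 39, 41, 43 and 70, and those of set 2 in the order 40, 42, 69 and 71. On the same arrays, rod markers had a list mean of 0.51 ± 0.27 (SD over 8 arrays), with 3 of 10 genes called above 0, and ganglion cell markers one of -0.20 ± 0.11, with 2 of 11 called below 0. Microglia markers ran from -0.41 on array 41 to 0.84 on arrays 39 and 40, with 0 of 10 called and 3 at an unadjusted p under 0.05. Cone, amacrine, bipolar and glial lists had means from 0.09 to 0.22. Of these, 2 of 6 bipolar, 1 of 7 cone, 1 of 7 glial and 0 of 6 amacrine markers were called above 0. Means of single bipolar markers ran from -0.37 to 0.49. The part of other cells in the values below was not tested, and in RNA of sorted fractions fewer cells of a type and less transcript per cell cannot be told apart.

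Splicing removes introns from pre-mRNA on the spliceosome, which is built anew on each intron. The U1 snRNP marks the 5' splice site, the U2 snRNP with its Sf3a and Sf3b proteins binds the branch point next to the U2af-bound 3' splice site, and the tri-snRNP of U4, U6 and U5 then joins and is rearranged into the catalytic form. SR proteins bind exonic enhancers and recruit these particles, and many Rbm proteins adjust the choice of exons. Photoreceptors are known to be sensitive to defects of the machinery, since mutations of the tri-snRNP genes PRPF3, PRPF4, PRPF6, PRPF8 and PRPF31 cause dominant retinitis pigmentosa in humans.

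The members differ most in how they lie on the sets of arrays, and the promoters of the members that lie farthest apart on each side are shown for orientation, since the arrays themselves report transcripts. Each is the 300 bases from 250 before to 50 after the annotated start in RefSeq's table of build GRCr8, 5′ to 3′ on the strand of the gene (plus strand for both), with matches to the ETS motif CCGGAAG or the NRF1 motif (GCGC, any base, then TGCGC) on either strand in capitals. Snrpb2, highest on set 1 against set 2, lies at chr3:150852584-150852883, and Rbm3, highest on set 2 against set 1 among members whose sets do not overlap, at chrX:17020655-17020954.
Snrpb2: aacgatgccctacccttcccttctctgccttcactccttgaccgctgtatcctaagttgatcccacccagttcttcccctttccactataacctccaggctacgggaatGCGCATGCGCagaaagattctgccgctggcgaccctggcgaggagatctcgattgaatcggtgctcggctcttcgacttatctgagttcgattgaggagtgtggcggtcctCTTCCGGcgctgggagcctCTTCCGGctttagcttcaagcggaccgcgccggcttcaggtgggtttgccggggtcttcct
Rbm3: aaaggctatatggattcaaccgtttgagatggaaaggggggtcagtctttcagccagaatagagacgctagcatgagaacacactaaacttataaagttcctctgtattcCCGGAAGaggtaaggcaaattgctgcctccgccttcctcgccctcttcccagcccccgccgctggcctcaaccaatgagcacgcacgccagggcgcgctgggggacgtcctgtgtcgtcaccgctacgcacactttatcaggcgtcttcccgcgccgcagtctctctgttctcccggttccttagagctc
The Snrpb2 window holds 2 ETS matches and 1 NRF1 match, and the Rbm3 window holds 1 ETS match and no NRF1 match. Promoters were found for 63 of the 67 members, with 66 windows in all. Of these 66, 18 held an ETS match (27.3%) and 9 an NRF1 match (13.6%), against 8.75% and 4.25% of the 33469 windows of the same length in the table, which also covers predicted genes and alternative starts. The GC box GGGCGG was found in 42.4% of the member windows and 33.1% of all, the CCAAT box in 45.5% and 37.5%, the TATA box TATAAA in 9.09% and 14.2%, and the E-box CACGTG in 6.06% and 6.42%, each on either strand. The motifs were searched independently of one another, and a match is a run of letters, not a shown binding site.

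No member passed the test on the mean over the 8 arrays as deposited. In that mean a difference between large and small cells would tend to cancel if swapped arrays had not been turned. limma called 0 of 67 at an adjusted p under 0.05, against a background of 314 of 14802 genes (2.12%). By side, 0.547% of all genes were called above 0 and 1.57% below 0, with 0 members in each. An unadjusted p under 0.05 was found for 7 members (10.4%), against 13.1% of all genes. Means ran from -0.56 for Rbm20 to 0.53 for Rbm22, with 34 on the positive and 33 on the negative side and a median of 0.00, against -0.01 over all genes. The median size of a member's mean was 0.10 (all genes 0.08), and the median SD over arrays was 0.29 (all genes 0.28). The 95% interval of the mean lay within 0.5 of 0 on the log2 scale for 55 members (82.1%, the same share as of all genes) and within 1 of 0 for all 67 (98.3% of all genes). For the other 12 members it reached beyond 0.5 on at least 1 side. These intervals hold for the mean as deposited. With the signs of set 2 turned, limma called 18 members (26.9%, against 28.1% of all genes), a description since the sets come from these data. The same sign on all 8 arrays was seen for 2 members (2.99%, against 4.41% of all genes), Rbm22 and Rbm38. Rbm22 had 1 probe, while the 2 probes of Rbm38 had means of opposite sign, 0.44 and -0.16. Rbm20 was below 0 on 7 arrays and exactly 0 on the remaining one.

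**Figure D1:**
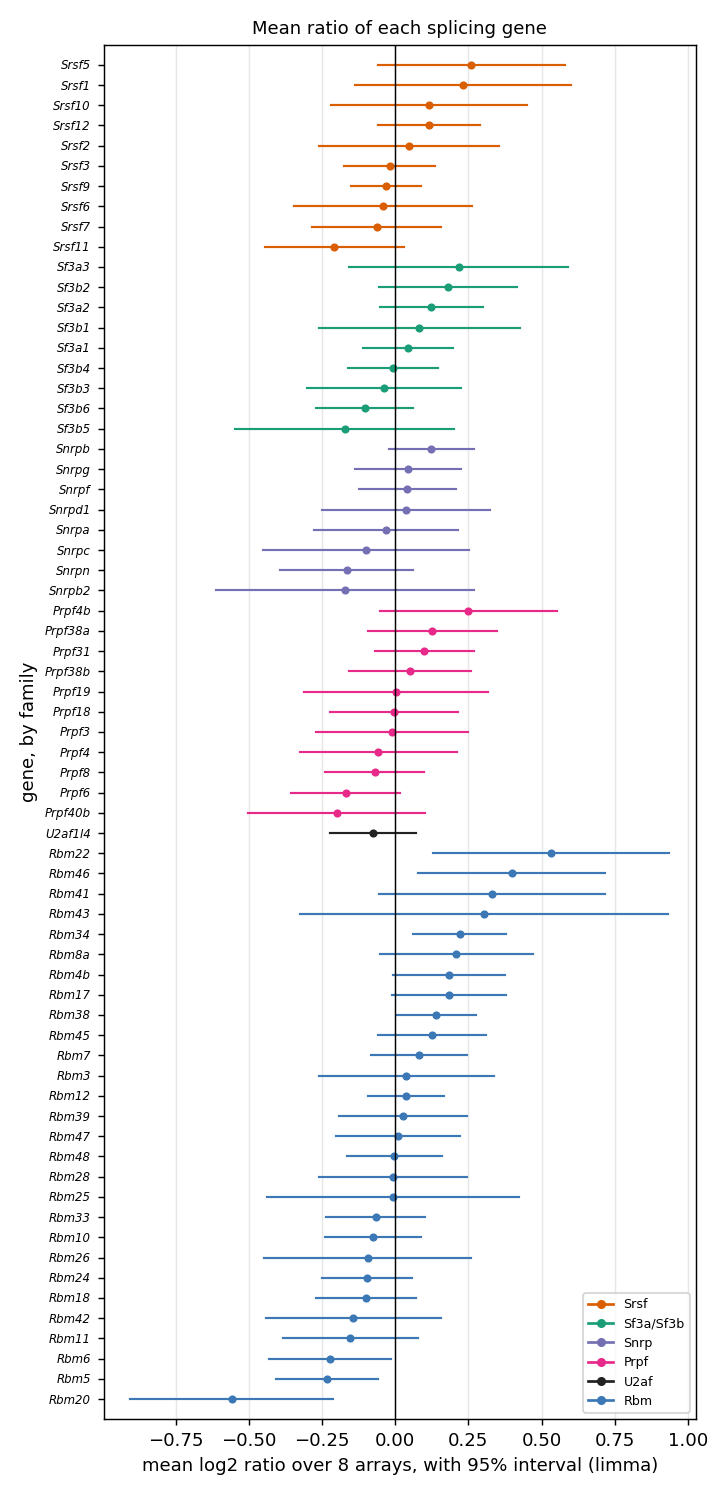
Mean log2 ratio of each of the 67 genes over 8 arrays (points) with its 95% interval from limma (lines), coloured by family; the horizontal axis is the log2 ratio between large and small cells, of unstated direction. Means run from -0.56 (Rbm20) to 0.53 (Rbm22), and most intervals include 0.

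Between the sets of arrays the members lay apart about as often as other genes did. For 23 members (34.3%) every array of one set lay above every array of the other, against 34.8% of all genes. Of these 23, 16 were higher on set 1 (23.9% of members, against 16.8% of all genes) and 7 on set 2 (10.4%, against 18.0%). The mean of set 1 was the higher for 41 members (61.2%, against 49.3% of all genes). The median difference, set 1 minus set 2, was 0.16 over the members and -0.01 over all genes, while the median size of the difference was 0.30 for both. For 10 members (14.9%, against 19.9% of all genes) all arrays of one set were positive and all of the other negative. Over the 67 members the 12 pairs of arrays within a set correlated from 0.06 to 0.74 and the 16 pairs between sets from -0.61 to 0.46, 13 of them below 0. The lowest was that of arrays 39 and 69, and the highest pair between sets was 41 and 42. These correlations are across genes of shared arrays and are descriptions only.

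**Figure D2:**
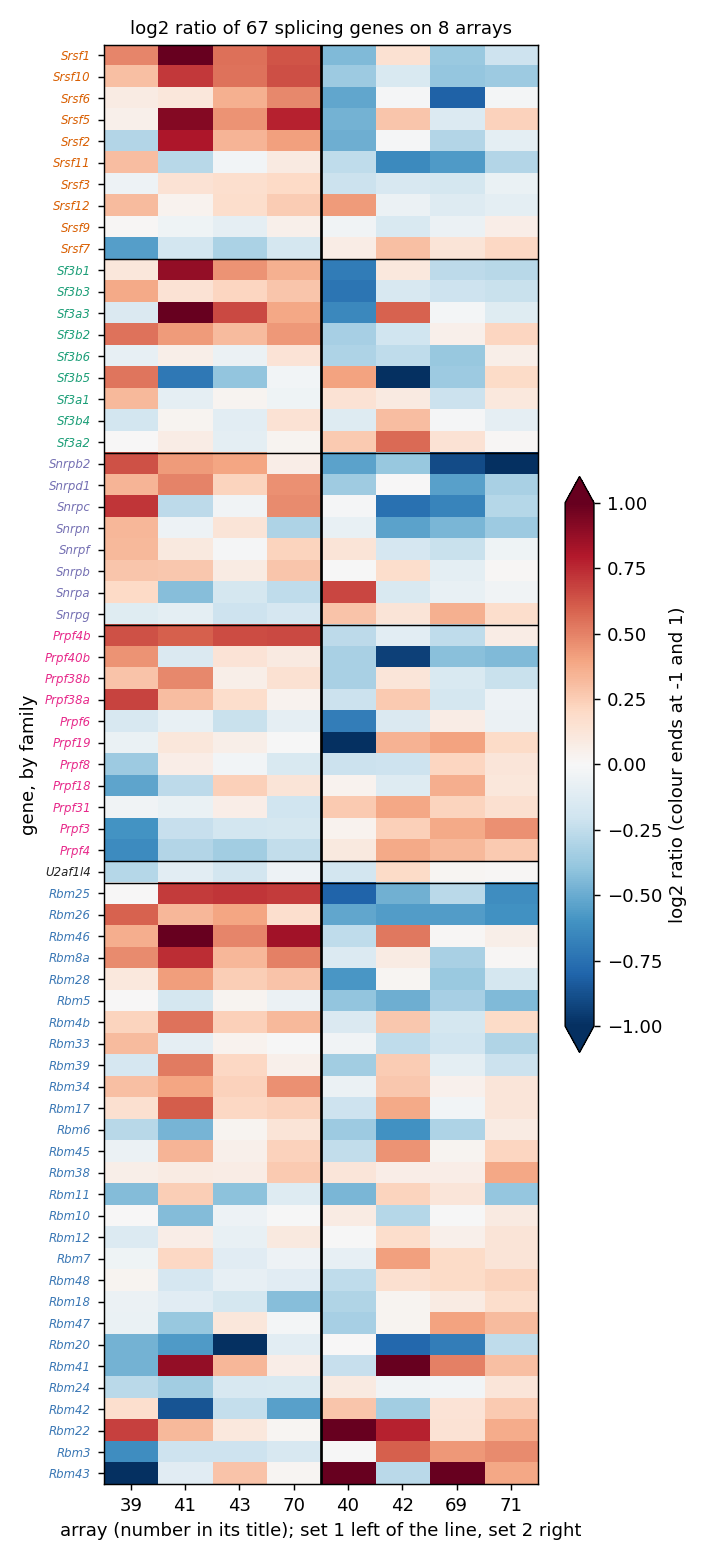
Log2 ratio of each gene (rows, by family and within a family by set difference) on each array (columns, set 1 left of the line and set 2 right), in colour from -1 to 1. Srsf and Snrp genes are mostly higher on set 1, while Prpf3, Prpf4, Srsf7, Snrpg and Rbm3 are higher on set 2.

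**Figure D3:**
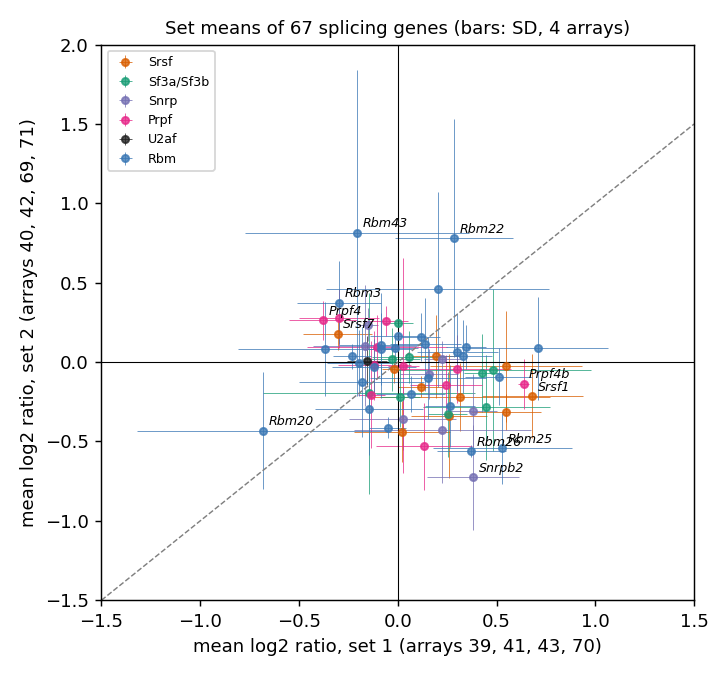
Mean log2 ratio on set 1 (horizontal) against set 2 (vertical) for the 67 genes, with the SD over the 4 arrays of each set as bars and equality as the dashed line. Points below the line, such as Snrpb2, Rbm25 and Srsf1, are higher on set 1, and points above it, such as Rbm3 and Rbm43, are higher on set 2.

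The Snrp genes encode the Sm proteins, which form a ring on each spliceosomal RNA, and proteins particular to U1 or U2. None of the 8 was called, and their median mean was 0.00. Their family median was 0.19 on set 1 and -0.19 on set 2, and 6 of 8 had the higher mean on set 1. Snrpb2, the U2 protein B'', lay at 0.63, 0.43, 0.40 and 0.07 on set 1 and at -0.53, -0.38, -0.90 and -1.10 on set 2. All arrays of set 1 were thus positive and all of set 2 negative, a difference of 1.11 between the set means (2.16-fold), while the mean over the 8 arrays was -0.17 ± 0.65 (SD, limma adjusted p = 0.846). It ranged from -0.29 to -0.04 as arrays 39, 69 and 71 were left out in turn. Snrpd1, the Sm protein D1, lay at 0.34, 0.49, 0.23 and 0.46 on set 1 and at -0.35, 0.00, -0.55 and -0.32 on set 2, where array 42 was just above 0. Its 3 probes all had the higher mean on set 1, by 0.40 to 0.91. The Sm protein G gene Snrpg was on the opposite side, with set means of -0.15 and 0.24 and opposite signs on all arrays of the sets. Snrpn encodes SmN, the Sm protein of neurons that takes the place of the protein of Snrpb there, from an imprinted locus. It lay at 0.33, -0.05, 0.13 and -0.31 on set 1 and at -0.08, -0.53, -0.46 and -0.36 on set 2, so the sets overlapped. Its mean of -0.17 ± 0.30 did not pass the test (limma adjusted p = 0.594, 95% interval -0.39 to 0.06). Snrpb had a mean of 0.12 ± 0.15 over 2 probes. The proteins of Snrpn and Snrpb are nearly identical, and how far probes of one detect the other was not tested. The U1 proteins Snrpa and Snrpc had means of -0.03 ± 0.33 and -0.10 ± 0.51, and Snrpf one of 0.04 ± 0.19.

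Sf3a and Sf3b proteins form the part of the U2 snRNP that holds the branch point. None of the 9 was called, their median mean was 0.04, and 7 of 9 had the higher mean on set 1. Sf3b1, the large scaffold around the branch point adenosine, lay at 0.12, 0.88, 0.45 and 0.35 on set 1 and at -0.70, 0.11, -0.26 and -0.28 on set 2. The lowest array of set 1 stood barely above the highest of set 2. The mean over all arrays was 0.08 ± 0.49 (limma adjusted p = 0.931). Sf3b3 lay at 0.38, 0.14, 0.22 and 0.28 against -0.73, -0.16, -0.21 and -0.22, with opposite signs on the sets and a mean of -0.04 ± 0.36. Sf3b2, whose sets did not overlap either, had set means of 0.43 and -0.07 and an overall mean of 0.18 ± 0.32 (limma adjusted p = 0.574). Sf3a3 had a mean of 0.22 ± 0.54 (limma adjusted p = 0.718), which was 0.10 without array 41 and 0.34 without array 40. It lay at -0.15, 1.03, 0.66 and 0.39 on set 1 and at -0.65, 0.59, -0.02 and -0.12 on set 2, lowest on arrays 39 and 40 and highest on 41. The others, Sf3a1, Sf3a2, Sf3b4, Sf3b5 and Sf3b6, had means from -0.17 to 0.12, each from 1 probe. U2af1l4, a relative of the small U2AF subunit that reads the 3' splice site, had a mean of -0.07 ± 0.15 over 2 probes (limma adjusted p = 0.768), at -0.28, -0.11, -0.18 and -0.05 on set 1 and -0.19, 0.19, 0.02 and 0.01 on set 2.

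The Prpf genes encode proteins of the tri-snRNP and of other steps of splicing. None of the 11 was called, the median mean was -0.01, and set 1 was the higher for 6 of 11. Prpf3, Prpf4 and Prpf31 had sets that did not overlap, with set 2 the higher. Prpf3, a U4/U6 protein, lay at -0.60, -0.23, -0.19 and -0.18 on set 1 and at 0.04, 0.24, 0.38 and 0.46 on set 2. Its partner in that particle, Prpf4, had set means of -0.38 and 0.26. Every array of set 1 was negative and every array of set 2 positive for both, and their overall means were -0.01 ± 0.36 and -0.06 ± 0.37. Prpf31, which bridges U4 and the tri-snRNP, lay at -0.03, -0.07, 0.07 and -0.20 on set 1 and at 0.26, 0.39, 0.22 and 0.16 on set 2, also without overlap, and its mean of 0.10 ± 0.19 did not pass the test (limma adjusted p = 0.707). Prpf8, the core protein of the catalytic centre, and Prpf6, which links U5 to U4/U6, did not separate the sets as means of their probes. Prpf8 lay at -0.36, 0.07, -0.03 and -0.15 on set 1 and at -0.21, -0.20, 0.21 and 0.12 on set 2 (mean -0.07 ± 0.20, limma adjusted p = 0.833). Its 2 probes disagreed, with means of 0.25 and -0.39. The first was positive on all arrays and higher on set 2 without overlap (set means 0.10 and 0.39). The second had overlapping sets (set means -0.34 and -0.435). Prpf6 lay at -0.16, -0.07, -0.22 and -0.09 on set 1 and at -0.69, -0.14, 0.07 and -0.06 on set 2 (mean -0.17 ± 0.23, limma adjusted p = 0.452), with array 40 far below the rest and a mean of -0.09 without it.

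Prpf4b and Prpf40b had sets that did not overlap, with set 1 the higher. Prpf4b, a kinase of the spliceosome, was even over set 1 at 0.64, 0.60, 0.66 and 0.66 and lower on set 2 at -0.26, -0.10, -0.26 and 0.07. Its mean of 0.25 ± 0.43 was the largest of the family and was not called (limma adjusted p = 0.523), but it was when the array set entered as a covariate (limma adjusted p = 0.02). With that covariate 3 members were called (4.48%, against 6.2% of all genes), the others being Rbm34 at 0.22 (limma adjusted p = 0.0368) and Rbm5 at -0.23 (limma adjusted p = 0.0155). Both probes of Prpf4b were higher on set 1, by 0.42 and 1.12. The probes of Rbm34 had opposite set differences of -0.27 and 0.77, and those of Rbm5 of -0.36 and 1.08. The sets were formed from these same data, so these calls are a description. None of the 3 was called when arrays next to each other in number order also entered as a random block (0 of 67 members, against 2.97% of all genes). Prpf40b, a relative of a U1-associated yeast protein, lay at 0.45, -0.14, 0.14 and 0.09 on set 1 and at -0.32, -0.94, -0.42 and -0.44 on set 2, with a mean of -0.20 ± 0.43 (limma adjusted p = 0.657) that became -0.09 without array 42. The ubiquitin ligase Prpf19, the step factor Prpf18 and the B complex genes Prpf38a and Prpf38b had means from -0.01 to 0.13 and sets that overlapped.

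The Srsf genes encode the SR proteins. None of the 10 was called, and the median mean was 0.01. The mean of set 1 was the higher for 9 of the 10 (all genes 49.3%). Their family median was 0.23 on set 1 and -0.18 on set 2, and 5 of 10 had sets that did not overlap, against 34.8% of all genes. Srsf1, the founding member, lay at 0.49, 1.06, 0.55 and 0.63 on set 1 and at -0.44, 0.15, -0.37 and -0.21 on set 2. The difference of 0.90 between the set means (1.86-fold) was the largest of the family, and the overall mean was 0.23 ± 0.54 (limma adjusted p = 0.681, 95% interval -0.14 to 0.60), or 0.12 without array 41. Srsf10, which can repress splicing when dephosphorylated, was positive on all of set 1 at 0.30, 0.71, 0.54 and 0.64 and negative on all of set 2 at -0.37, -0.15, -0.38 and -0.36. Srsf5 had a mean of 0.26 ± 0.46 (limma adjusted p = 0.53; 0.17 without array 41), at 0.05, 0.91, 0.45 and 0.77 on set 1 and -0.47, 0.28, -0.14 and 0.23 on set 2. Srsf3, the smallest SR protein, stayed close to 0 as the mean of 6 probes, whose set differences ran from -0.27 to 1.24. Its values of -0.05, 0.15, 0.17 and 0.20 on set 1 lay above those of -0.22, -0.16, -0.18 and -0.06 on set 2 by a narrow margin. Srsf6 was positive on all of set 1 at 0.08, 0.12, 0.36 and 0.48. It was negative on all of set 2 at -0.52, -0.01, -0.81 and -0.02, so arrays 42 and 71 were close to 0. The set means were 0.26 and -0.34. Its 4 probes differed between the sets by -0.02 to 0.89, and 1 of them stood at -2.80 on array 69. Srsf7, with set means of -0.30 and 0.18, was the only Srsf gene higher on set 2. Srsf9 had the narrowest spread of all members, with a mean of -0.03 ± 0.07 and a 95% interval from -0.15 to 0.09. Srsf2, Srsf11 and Srsf12 had sets that overlapped and means from -0.21 to 0.12.

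**Figure D4:**
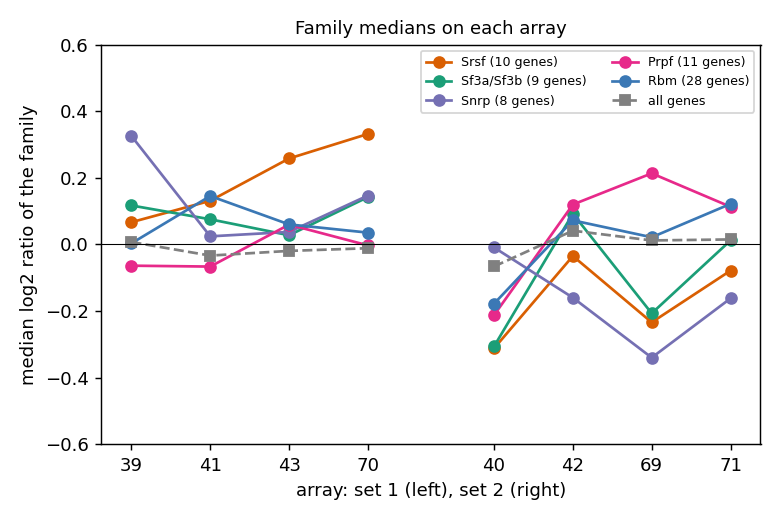
Median log2 ratio of each family on each array, with set 1 on the left, set 2 on the right and the median of all genes as a dashed grey line; U2af, with 1 gene, is not drawn. The Srsf median is above 0 on all 4 arrays of set 1 and below 0 on all 4 of set 2. The Srsf, Sf3a and Sf3b, Prpf and Rbm medians, and that of all genes, are lowest on array 40.

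The Rbm genes share an RNA recognition motif and little else, and they gave both the lowest and the highest mean. None of the 28 was called. The 7 members with an unadjusted p under 0.05 were all Rbm genes (25.0% of this largest family, against 13.1% of all genes). Their median mean was 0.02, and set 1 was the higher for 13 of 28. Rbm20, a regulator of titin splicing in heart muscle, had the lowest mean at -0.56 ± 0.50 (1.47-fold, limma adjusted p = 0.116). Its single probe lay at -0.47, -0.57, -1.59 and -0.11 on set 1 and at 0.00, -0.78, -0.69 and -0.25 on set 2, so the sets overlapped fully and array 43 was lowest. Without the value of exactly 0 the mean was -0.64 (limma adjusted p = 0.0847). Rbm22, which helps hold the RNA in the catalytic spliceosome, had the highest mean at 0.53 ± 0.59 (1.45-fold, limma adjusted p = 0.21). It was positive on all arrays, at 0.69, 0.32, 0.10 and 0.02 on set 1 and 1.84, 0.77, 0.15 and 0.37 on set 2. Without array 40 its mean was 0.35 (limma adjusted p = 0.153). The list mean of microglia markers was highest on arrays 39 and 40 (0.84 on both) and was -0.36 on array 42, which held the second highest value of Rbm22. The part of such cells in the value of Rbm22 was not tested.

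The remaining members with an unadjusted p under 0.05, named for that reason after their values were seen, were Rbm5, Rbm6, Rbm34, Rbm38 and Rbm46. Rbm5 and its neighbour and relative Rbm6, both regulators of alternative splicing, lay on the negative side at -0.23 ± 0.21 and -0.22 ± 0.27. Rbm34 at 0.22 ± 0.17, Rbm38 at 0.14 ± 0.12 and the germ-cell gene Rbm46 at 0.40 ± 0.46 lay on the positive side. Their limma adjusted p ran from 0.182 for Rbm34 to 0.359 for Rbm38.

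Other Rbm genes separated the sets. Rbm25, which promotes use of a 5' splice site of Bcl-x in human cells, lay at 0.00, 0.70, 0.71 and 0.70 on set 1 and at -0.80, -0.48, -0.27 and -0.62 on set 2, a difference of 1.07 between set means (2.10-fold) around an overall mean of -0.01 ± 0.63 (limma adjusted p = 0.995). Rbm26 had set means of 0.37 and -0.56, and its 3 probes were all higher on set 1. Rbm8a, a core protein of the exon junction complex, and the nucleolar gene Rbm28 also lay higher on set 1 without overlap, as did Rbm5. Rbm3, a cold-induced protein, was higher on set 2. It lay at -0.62, -0.20, -0.21 and -0.16 on set 1 and at -0.01, 0.60, 0.43 and 0.48 on set 2, with a mean of 0.04 ± 0.42 (limma adjusted p = 0.968). Rbm43 varied most of all members, at -1.02, -0.11, 0.28 and 0.02 on set 1 and 2.14, -0.27, 1.004 and 0.38 on set 2. Its sets overlapped in spite of the difference of 1.02 between their means, and the mean of 0.30 ± 0.94 did not pass the test (limma adjusted p = 0.783). That mean rested on array 40 and was 0.04 without it, and it was 0.49 without array 39. Rbm38 and Rbm24, regulators of muscle splicing, had means of 0.14 and -0.10, and Rbm24 was higher on set 2 without overlap. Rbm39, a relative of the large U2AF subunit, had a mean of 0.03 ± 0.29 over 6 probes.

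Probes of one gene often disagreed about the sets. Of the 39 members with several probes, 20 had probes on both sides (51.3%, against 55.1% of the 5619 genes with several probes). The median range between probes of a gene was 0.61 for the set difference and 0.15 for the mean over 8 arrays, against 0.61 and 0.18 over all such genes. Srsf10 showed the widest range. Its probe with the largest difference lay at 0.81, 0.65, 1.15 and 0.81 on set 1 and at -0.98, -1.62, -1.08 and -1.16 on set 2, a difference of 2.07. Another of its probes lay at -0.35, 0.70, 0.18 and 0.27 against -0.10, 0.88, 0.16 and 0.12, a difference of -0.06. The probes of Prpf40b, both listed with RefSeq transcripts, differed by 1.69 and -0.36. The higher value of Srsf7 on set 2 rested on 1 of 3 probes, which differed by -1.37, while the others differed by -0.08 and 0.01. The 3 probes of Srsf1, in contrast, all lay higher on set 1, by 0.76 to 0.97. For Rbm5 the probes had nearly the same mean, -0.21 and -0.26, and opposite set differences of -0.36 and 1.08. When single probes were tested in place of genes, limma called 1 of the 133 member probes, against 2.06% of 23374 probes. It was a probe of Rbm38 at 0.44 (limma adjusted p = 0.0326), positive on 8 of 8 arrays from 0.15 to 0.72. The other probe of Rbm38 had a mean of -0.16.

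The probe table lists each probe with either a RefSeq transcript or another transcript entry, mostly expressed sequence tags. In several members the RefSeq probes had the higher mean, as in Srsf1, at 0.73 ± 0.74 against -0.01 and -0.02 for its others, and in Sf3b1, whose RefSeq probes lay at 0.42 and 0.35 and its other 3 from -0.17 to -0.08. Of 23 members with both kinds of probe the RefSeq mean was the higher in 13 (56.5%, against 54.4% of 3555 genes), with a median difference of 0.13 (all genes 0.02). Mean ratios of these genes thus depend on which probes are averaged.

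**Figure D5:**
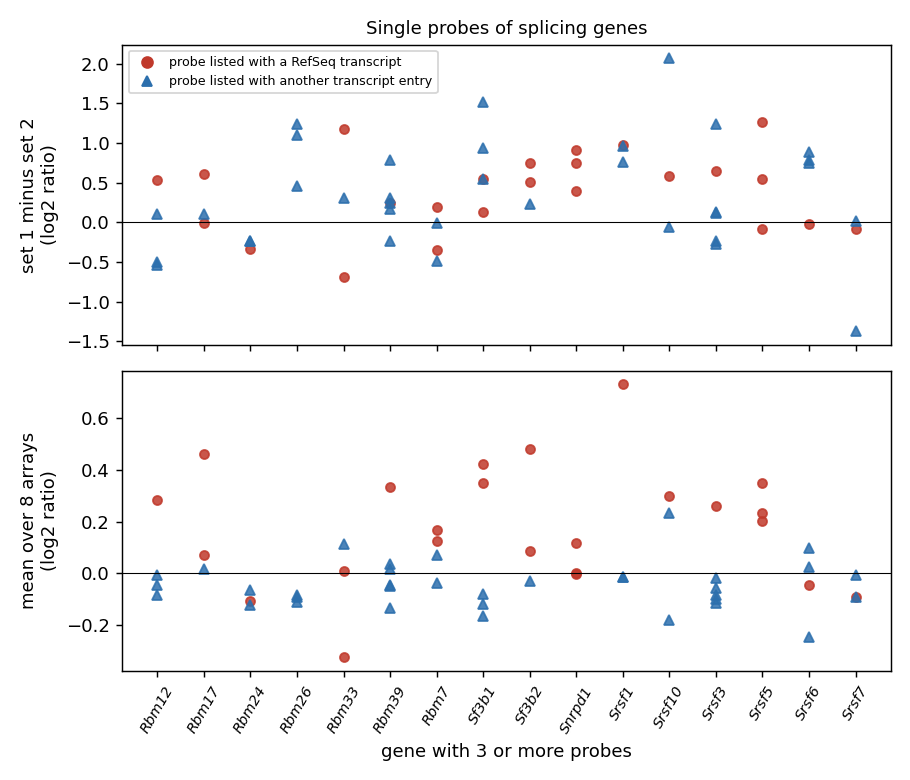
Single probes of the 16 members with 3 or more probes, by gene: the difference between the set means (top) and the mean over 8 arrays (bottom), both in log2 ratio. Circles are probes listed with a RefSeq transcript and triangles those with another transcript entry; the probes of Srsf10 run from -0.06 to 2.07 in the set difference.

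Of 162 other measured genes of the splicing pathway, from 6 lists, limma called 2 (1.23%, against 2.12% of all genes). Thoc1, a subunit of the THO complex that couples transcription to mRNA export, lay at -0.66 ± 0.28 (limma adjusted p = 0.0108). It was negative on all arrays, at -0.68, -0.87, -0.63 and -1.14 on set 1 and -0.38, -0.64, -0.22 and -0.77 on set 2. Qki, which binds introns to steer exon choice and circular RNA formation, lay at 0.34 ± 0.16 (limma adjusted p = 0.0345), positive on all arrays from 0.13 to 0.61. Arrays next to each other in number order were averaged, 1 of each set, in case they are subreplicates of 1 sample. With these averages limma called 0 of 14802 genes, so neither call was kept. Both are single genes of their lists, of 16 genes of exon junction, cap-binding and export complexes and of 26 neuronal and tissue-restricted regulators. The other lists had 0 called genes, and those at an unadjusted p under 0.05 numbered 2 of 31 for Sm ring and snRNP assembly, 3 of 39 for helicases and step factors, 9 of 24 for hnRNP proteins and 8 of 26 for SR-related proteins and SR kinases. They numbered 7 of 26 for the neuronal and tissue-restricted regulators and 2 of 16 for the export list, and the share over all genes was 13.1%. The hnRNP genes, which coat nascent transcripts, had 23 of 24 means on the positive side and a median of 0.20, against 7101 of 14802 genes on that side. Their list mean was 0.10, 0.51, 0.23 and 0.34 on set 1 and -0.10, 0.32, 0.07 and 0.19 on set 2, highest on arrays 41 and 42 in each set. Microglia markers were lowest on those arrays, at -0.41 and -0.36. Rod markers were at 0.44, 0.84, 0.66 and 0.91 on set 1 and at 0.15, 0.43, 0.22 and 0.45 on set 2, lowest on arrays 40 and 69 as the hnRNP genes were. The part of either cell type in these values was not tested.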

How the data were processed

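Two-colour arrays of large against small rat ganglion cells were used, 8 in all, in 1 group. The authors deposited a log2 ratio per probe (41048 probes), each array centred close to 0, and per the labels RNA was amplified in 2 rounds. The sources used here do not give the scanner software, the background correction or the normalization. The log base was worked out from the values: of 88 distances between common values, 58 matched log2 of a ratio of small whole numbers, 5 log10 and 0 the natural log. Array number limits the precision.

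Probes with 1 symbol (23374; 48 had several, 17626 none) gave 14802 genes as probe means, with values on at least 6 arrays. Symbols were checked by gene identifier against RefSeq (GRCr8), which matched 23327 probes and updated 1 symbol, of no member. Each gene's mean over arrays was tested against 0 in limma 3.58.1 (R 4.3.3), Benjamini-Hochberg adjusted over all genes, called under 0.05. The labels mention 2 technical subreplicates per biological replicate without naming them, so the arrays entered singly, which makes p-values too small where arrays share a sample.

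Named members were any called gene, the 2 of each family largest in mean and in set difference, and Srsf1, Srsf3, Sf3b1, Snrpn, Prpf3, Prpf6, Prpf8, Prpf31, U2af1, U2af2 and Rbm3. U2af1 and U2af2 had no probe with 1 symbol. Other genes are given in ranges, or as further values chosen after they were seen. Members and lists were chosen with earlier results of these data known. On simulated data of 14800 genes for the mean over 8 arrays, 52% of 100 genes at a log2 ratio of 0.5 and 96% of 100 at a log2 ratio of 1 were recovered, with 1 false call. The simulated noise was independent between arrays, so these results do not cover arrays that share a sample. Plots used matplotlib 3.10.9.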

Additional observations from a re-analysis of the deposited data

Results flagged for a closer look

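In all, 30 results were examined: 23 named members, the median of all members and the medians of 6 families. In 3 of them 1 array stood apart from the other 7 by more than the 95% critical value of Dixon's ratio for 8 values. Chance passes that value in about 1 in 20 groups of independent normal values. That rate need not hold here, since the arrays form correlated sets and some named members were chosen for a large mean or set difference. All 3 flagged results concern array 40, the array with the widest SD over all probes (0.78). Its median absolute deviation of 0.255 was below those of arrays 39 (0.302) and 42 (0.286). Prpf6 stood at -0.69 there, against values from -0.22 to 0.07 elsewhere, and its 2 probes gave -0.95 and -0.43. Without array 40 its mean was -0.09 in place of -0.17. Rbm22 stood at 1.84 on array 40, against 0.02 to 0.77 elsewhere. The median of the Rbm family was -0.18 on that array, and without it the family's median mean was 0.05 in place of 0.02. Array 40 also held the lowest median of the Srsf (-0.31), Sf3a and Sf3b (-0.31) and Prpf (-0.21) families and of all genes (-0.07), but not of Snrp or U2af.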

How the results depend on the processing

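No member was called with the arrays centred, scaled, summarised by the median probe, with extreme values (beyond 15 in size) and exact 0 set to missing, with a value required on all 8 arrays, with robust eBayes, without any 1 array, over averages of neighbouring arrays, or with neighbouring arrays as a random block besides the set. With the array set as a covariate, members were called (2 on the positive and 1 on the negative side), and 1 was called among single probes, on the positive side. With the signs of set 2 turned, which the unstated direction would call for if swapped arrays had not been turned, limma called 13 members on the positive and 5 on the negative side (26.9%, against 28.1% of all genes). The sets were formed from the data, so these calls and those with the set as a covariate are a description. The mean then became 0.33 for Prpf40b, 0.54 for Rbm25, -0.34 for Rbm3, 0.29 for Sf3b3 and 0.55 for Snrpb2 among the named members, and 0.47 for Rbm26, 0.27 for Rbm28, 0.30 for Srsf6 and -0.19 for Snrpg among the other called members, each on the side opposite to its mean as deposited, and the median of the Srsf family became 0.25. The count over all genes, 314, was 0 for averages of neighbouring arrays (1920 at an unadjusted p under 0.05), 918 with the set as a covariate, 4158 with signs turned, 482 for single probes, and from 118 to 304 without 1 array (leaving out 41 gave 190, 42 gave 181, 43 gave 148, 69 gave 200, 70 gave 118 and 71 gave 163). The median of the members' means stayed between -0.01 and 0.08. No paired analysis was possible because all arrays form 1 group and no second group shares their numbers. The averages and the block above join arrays that are next to each other in the order of their numbers within that group. The numbers are not all consecutive, so 43 was joined with 69. Each pair holds 1 array of each set, so each average is over both sets. The number of arrays, the unknown direction and the lack of scanner intensities limit what can be read from these values.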
